A study of Rattus norvegicus with 9 samples.

Results

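Fat cells are recognised by the genes of their lipid droplets and hormones, and 10 genes that serve as markers of white or brown fat were followed here through the infarcted rat heart: Adipoq, Plin1, Plin4, Cidec, Cidea, Fabp4, Lep, Ucp1, Retn and Cfd. They were taken by name from a table of 35843 genes, and each name matched 1 row. The rule uses no measured value, but the list was drawn up with earlier results of these data known. The samples were left ventricles of adult male Sprague-Dawley (SD) rats at day 28, described as heart in the labels. There were 3 samples per group and 9 in all, each taken here as 1 rat. Group Sham was operated in the same way but the left anterior descending (LAD) artery was not tied and received saline by gavage. Group MI had the LAD ligated for good and received saline. Group MI + DAPA (1st d), below group DAPA (1st d), had the same ligation and received DAPA, dapagliflozin, an inhibitor of the sodium-glucose co-transporter SGLT2, at 1 mg/kg by daily gavage from day 1. According to the study's methods, tissue for molecular work came mainly from a thin rim at the infarct border with the scar removed, and from the matching site in group Sham. For the sequencing itself, however, the methods name left ventricles, and the results speak of infarct myocardium in both ligated groups. The exact site of the sequenced pieces is therefore not certain. How much fat adhered to these pieces is not given in the sources used here.

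White adipocytes store triglyceride in one large droplet coated by perilipin, and secrete adiponectin, leptin, resistin and adipsin. Brown adipocytes hold many small droplets and burn fat through uncoupling protein UCP1. The rat heart carries fat on its outer surface and in the grooves along its vessels, so a piece of ventricle can hold some. Several of the 10 genes are also made by other cells of the heart, as FABP4 is by capillary endothelium.

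All values are FPKM, fragments per kilobase of transcript scaled to a size set per library, which are divided by gene length and so can be set side by side between genes. Whole reads per gene were recovered from the steps of the FPKM values, at 13597239 to 17210909 reads per rat. The mitochondrial genome took 59.9 to 65.7% of the reads in group Sham, 6.93 to 18.7% in group MI and 17.1 to 31.6% in group DAPA (1st d). This left 5899666 to 6858645 reads on other genes per Sham rat, against 12655397 to 13222454 per MI rat and 11519732 to 12131819 per treated rat. The fewest reads were therefore available for adipocyte genes in group Sham. Cardiomyocyte markers were high in all 9 libraries, from 2869 to 24231 FPKM summed over 12 genes, with the lowest sum in MI rat 2. That rat also had 3856 FPKM summed over 9 B cell and plasma cell genes, against 35.9 and 674 in the other MI rats.

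The 10 genes did not move as 1 group, so no single fat score is given. Adipoq, Plin1, Cidec and Retn were at or near 0 in group Sham, low in group MI and highest in group DAPA (1st d). Fabp4 was highest in group Sham, Cfd was highest in group MI, Cidea had its highest mean in the treated rats, and Plin4 overlapped between all groups. Lep and Ucp1 were close to 0 throughout. These 4 genes with a common pattern were grouped after their values were seen.

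**Figure D1:**
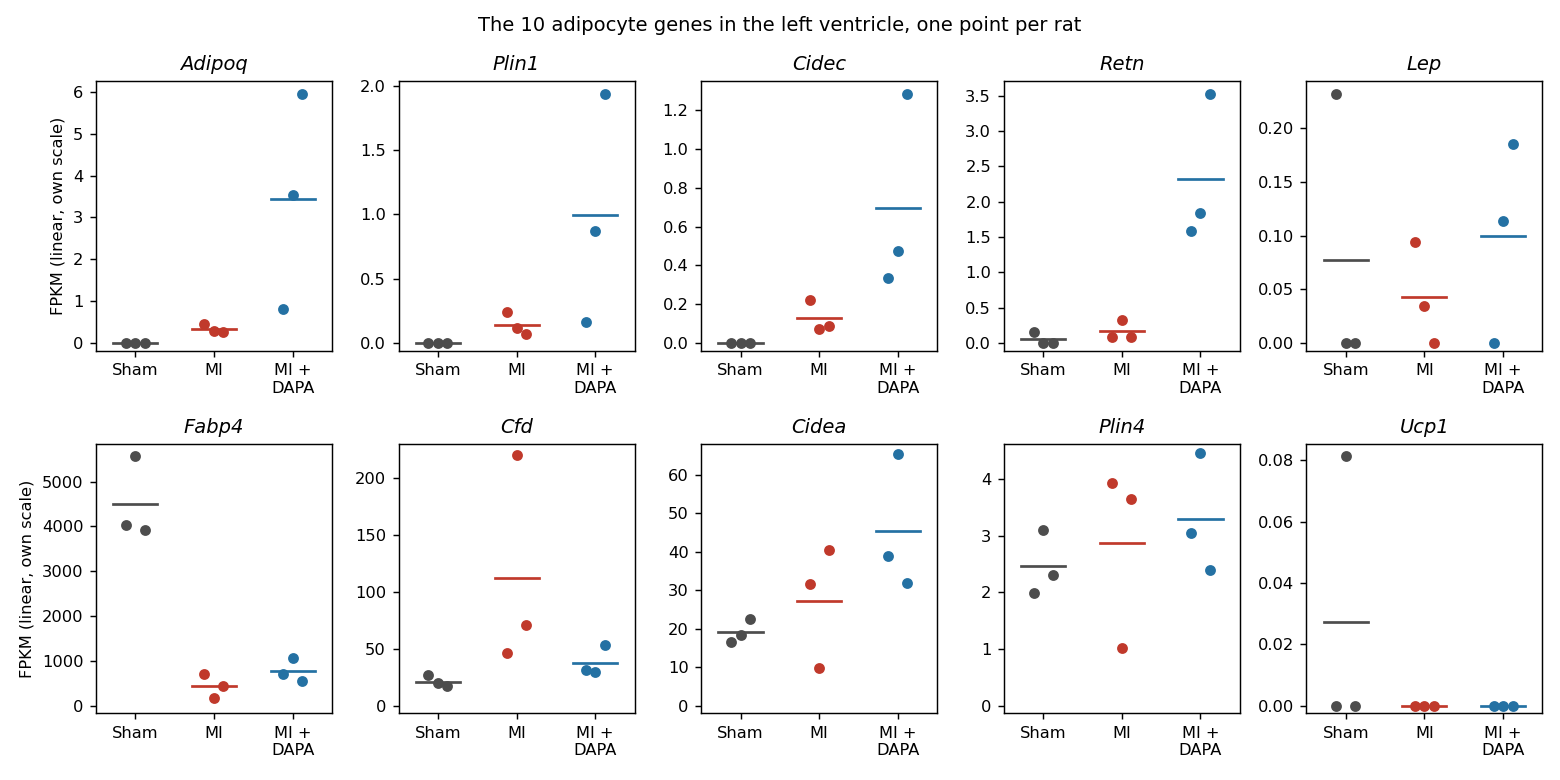
FPKM of each of the 10 adipocyte genes on a linear axis of its own, with 1 point per rat and a bar at the mean of 3 rats for group Sham (grey), group MI (red) and group DAPA (1st d) (blue). Adipoq, Plin1 and Cidec lie at 0 in all 3 Sham rats, while Fabp4 lies at 3923 FPKM or more there and at 1072 FPKM or less in the other 6 rats.

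The upstream sequence of these 4 genes is shown because they share a pattern across the rats. Each window holds the 250 bases before the transcription start in RefSeq's table for rat build GRCr8, read 5′ to 3′ on the gene's own strand, and 9 of the 10 genes have an entry. Capitals mark the motifs found on either strand among AGGTCA, the half-site of nuclear receptors such as PPARγ; its direct repeat DR1, with 1 base between 2 half-sites; TTGCNNAA, a core of C/EBP sites; and TATAAA, the TATA box.
Adipoq, chr11:91240170-91240419, minus strand: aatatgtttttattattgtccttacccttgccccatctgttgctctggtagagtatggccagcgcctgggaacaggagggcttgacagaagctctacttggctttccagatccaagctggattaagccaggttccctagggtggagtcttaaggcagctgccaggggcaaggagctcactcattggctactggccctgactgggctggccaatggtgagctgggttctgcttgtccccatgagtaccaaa
Plin1, chr1:143086149-143086398, minus strand: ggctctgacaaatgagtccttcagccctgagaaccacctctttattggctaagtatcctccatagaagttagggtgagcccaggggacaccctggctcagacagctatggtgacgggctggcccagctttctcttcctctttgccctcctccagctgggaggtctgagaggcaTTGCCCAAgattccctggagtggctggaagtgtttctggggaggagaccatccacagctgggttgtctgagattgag
Cidec, chr4:148137116-148137365, minus strand: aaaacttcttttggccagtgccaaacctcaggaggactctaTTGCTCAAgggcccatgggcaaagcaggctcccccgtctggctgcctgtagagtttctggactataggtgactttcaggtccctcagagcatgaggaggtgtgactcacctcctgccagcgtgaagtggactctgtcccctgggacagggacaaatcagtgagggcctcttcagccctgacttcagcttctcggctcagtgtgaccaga
Retn, chr12:6508524-6508773, plus strand: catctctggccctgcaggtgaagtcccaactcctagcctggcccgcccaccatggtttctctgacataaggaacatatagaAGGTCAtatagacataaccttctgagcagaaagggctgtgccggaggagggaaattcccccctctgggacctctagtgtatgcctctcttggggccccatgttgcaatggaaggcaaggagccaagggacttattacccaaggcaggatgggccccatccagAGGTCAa
Plin1 and Cidec each hold 1 TTGCNNAA match, whose first base lies 77 and 209 bases before the start, and Retn holds 2 AGGTCA matches, 169 and 7 bases before it. The Adipoq window has none of the 4 motifs. TTGCNNAA occurs in 9.22% of the 33469 promoters in the table, AGGTCA in 14.1%, TATAAA in 12.9% and the DR1 in 0.0508%. Among the other members Lep has TTGCNNAA, Ucp1 has TATAAA 30 bases before the start, and Plin4, Cidea and Cfd have none. Fabp4 has no entry. A match is only a match of letters.

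Adipoq encodes adiponectin, a hormone that adipocytes secrete. It had 0 reads in Sham rats 1, 2 and 3. In group MI it was at 0.457, 0.278 and 0.256 FPKM, from 18, 10 and 10 reads, and in group DAPA (1st d) at 0.803, 3.54 and 5.96 FPKM, from 27, 116 and 220 reads. The groups did not overlap, and within the treated group the highest rat was 7.43 times the lowest. The mean was 0.330 ± 0.110 (SD, n = 3) FPKM in group MI and 3.44 ± 2.58 in group DAPA (1st d), a ratio of 10.4. Without treated rat 3 that ratio was 6.58.

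Plin1 encodes perilipin 1, the coat protein of the adipocyte lipid droplet. It was at 0 in the 3 Sham rats, at 0.242, 0.114 and 0.0697 FPKM in group MI and at 0.162, 0.874 and 1.94 FPKM in group DAPA (1st d). Treated rat 1 lay below MI rat 1, so these groups overlapped, while both lay above group Sham. The mean was 0.142 ± 0.0896 (SD, n = 3) FPKM in group MI and 0.992 ± 0.894 in the treated group, a ratio of 6.99 that was 3.65 without treated rat 3, 10.8 without MI rat 1.

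Cidec encodes a droplet protein that lets small lipid droplets fuse into a large one. Its FPKM was 0 in each Sham rat, 0.219, 0.0719 and 0.0883 in group MI and 0.333, 0.474 and 1.29 in group DAPA (1st d). All treated rats lay above all MI rats, with means of 0.698 ± 0.514 and 0.126 ± 0.0806 (SD, n = 3), a ratio of 5.52. Without treated rat 3 the ratio was 3.19, and without MI rat 1 it was 8.72.

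Retn encodes resistin, which rodent adipocytes secrete. It was at 0.157, 0 and 0 FPKM in group Sham, at 0.0848, 0.325 and 0.0855 in group MI, and at 1.59, 1.84 and 3.53 in group DAPA (1st d), where 32, 36 and 78 reads were counted. All 3 treated rats lay above the other 6. The mean was 0.165 ± 0.138 (SD, n = 3) FPKM in group MI and 2.32 ± 1.06 in the treated group, a ratio of 14.1. That ratio was 10.4 without treated rat 3 and 27.2 without MI rat 2.

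Treated rat 3 had the highest value of each of these 4 genes, and treated rat 1 the lowest among the treated rats. Over the 9 rats their log2(FPKM + 1) values correlated pairwise with Pearson's r of 0.882 to 0.978, as a description of 9 libraries that share groups and depth. The 4 genes were grouped for their common pattern, so a high r follows from that choice. Within a rat the genes did not keep 1 proportion. Plin1 was 0.202 to 0.530 times Adipoq, Cidec was 0.134 to 0.479 times Adipoq, and Retn ranged from 0.186 to 1.98 times Adipoq in the 6 ligated rats. In whole tissue, more cells of a type and more RNA per cell cannot be told apart.

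Lep encodes leptin, the satiety hormone of white fat. Its FPKM was 0.232, 0 and 0 in group Sham, 0.0944, 0.0344 and 0 in group MI, and 0, 0.114 and 0.185 in group DAPA (1st d). The groups overlapped, and treated rat 1 had 0 reads of Lep beside 27 of Adipoq. Ucp1, the uncoupling protein of brown fat, was at 0.0813 FPKM in Sham rat 2 and listed at 0 in the other 8 rats.

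A count of 0 has a limit of detection. In group Sham, 3 reads correspond on average to 0.150 FPKM of Adipoq, 0.102 FPKM of Plin1 and 0.130 FPKM of Cidec per library. Set against that floor of 3 reads per library, the mean of group DAPA (1st d) was 22.9-fold higher for Adipoq, 9.68-fold for Plin1 and 5.38-fold for Cidec. Treated rat 1 was below these means, at 0.803, 0.162 and 0.333 FPKM from 27, 8 and 13 reads, so its own folds over the floor are smaller. For the mean of group MI the folds over the floor were 2.20 for Adipoq and 1.38 for Plin1, while the mean of Cidec lay under it. These limits cover counting error in the Sham rats only, not that of the ligated rats or the spread between rats.

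Fabp4 encodes the fatty acid-binding protein of adipocytes and of capillary endothelium, and it had its highest values in group Sham. It was at 4025, 5575 and 3923 FPKM in group Sham, at 712, 171 and 430.1 FPKM in group MI and at 703, 1072 and 549.8 FPKM in group DAPA (1st d). The Sham rats, with 0 reads of Adipoq, Plin1 and Cidec, had the most Fabp4. The mean was 4508 ± 925 (SD, n = 3) FPKM in group Sham, 438 ± 271 in group MI, with 775 ± 269 in the treated group. In ligated rats Fabp4 was 92.2 to 1681 times Adipoq, and the lowest ratio belonged to treated rat 3.

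Cfd encodes adipsin, complement factor D, a protease that adipocytes and myeloid cells secrete. Its FPKM was 26.6, 19.7 and 17.0 in group Sham, 46.5, 219.7 and 70.9 in group MI, and 31.0, 29.5 and 52.7 in group DAPA (1st d). Every MI rat lay above every Sham rat, and MI rat 2 was 4.73 times MI rat 1. The mean was 21.1 ± 4.97 (SD, n = 3) FPKM in group Sham, 112 ± 93.8 in group MI, with 37.7 ± 13.0 in the treated group.

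Cidea encodes a lipid droplet protein best known from brown fat. It was at 16.6, 18.4 and 22.5 FPKM in group Sham, at 31.6, 9.65 and 40.5 in group MI and at 39.0, 65.2 and 31.8 in group DAPA (1st d). All treated rats lay above all Sham rats, whereas MI rat 2 lay below them. Plin4, a perilipin that coats small and growing droplets, was at 1.99, 3.10 and 2.31 FPKM in group Sham, 3.93, 1.01 and 3.64 in group MI and 3.04, 4.45 and 2.39 in the treated group. MI rat 2 was again the lowest, and the groups overlapped.

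**Figure D2:**
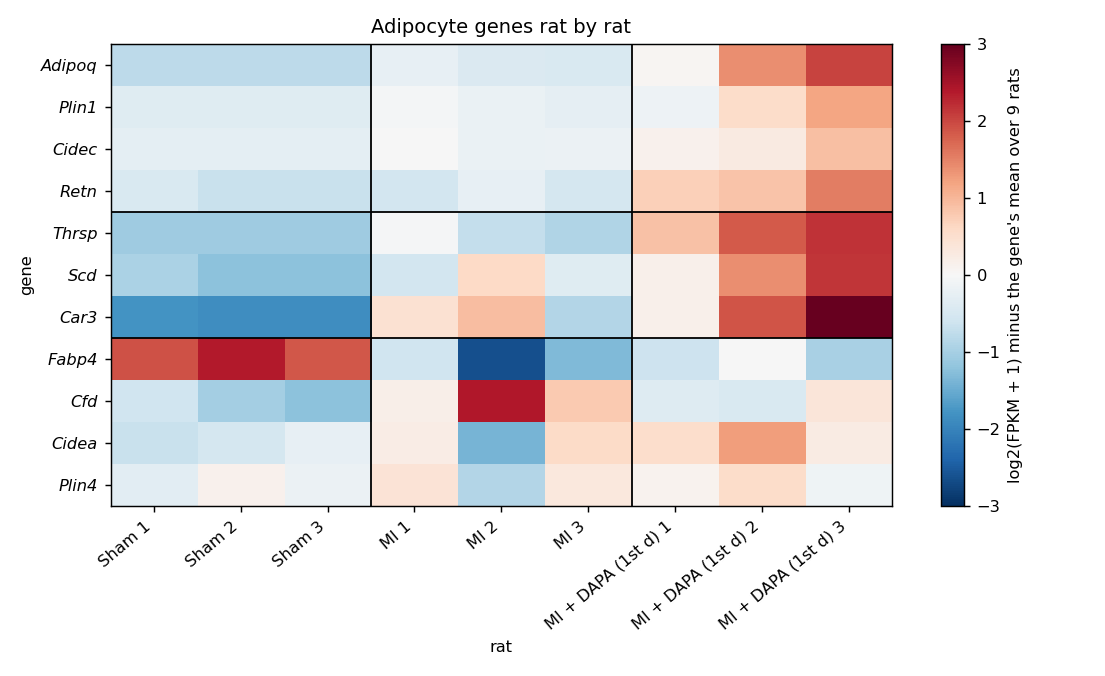
Heat map of log2(FPKM + 1) minus each gene's mean over 9 rats, 1 column per rat and 1 row per gene: Adipoq, Plin1, Cidec and Retn at the top, Thrsp, Scd and Car3 in the middle and Fabp4, Cfd, Cidea and Plin4 at the bottom. The upper 7 rows are highest in treated rat 3, Fabp4 is highest in the 3 Sham rats, and MI rat 2 has the lowest Fabp4, Cidea and Plin4 and the highest Cfd.

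The spread between rats of 1 group was wide in group MI for Cfd, Cidea, Fabp4 and Plin4, and near that of the median gene in group Sham. In group MI the SD of log2(FPKM + 1) was 1.15 for Cfd, 1.05 for Cidea, 1.04 for Fabp4 and 0.72 for Plin4, against a median of 0.21 over 14157 genes. Between 93.5 and 98.4% of those genes had a smaller SD than each of these 4. In group Sham the same 4 genes had SDs of 0.21 to 0.32, beside a median of 0.26. In group DAPA (1st d) they had SDs of 0.35 to 0.52, with a median of 0.25 over all genes. Adipoq had an SD of 1.00 in the treated group and 0.12 in group MI. At low values the added 1 narrows the spread on this scale. In FPKM the SD of Adipoq was 75.2% of its mean in the treated group and 33.4% in group MI.

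The comparisons were tested with limma on log2(FPKM + 1) over genes with at least 1 FPKM in at least 3 of the 6 rats compared. A gene was called when its unadjusted p was under 0.05 and its log2 fold change beyond 1 in either direction. A fold change on this scale understates the change of a gene with low values. Plin4, Cidea, Fabp4 and Cfd passed this filter in every comparison, Retn passed in the 2 comparisons that include the treated rats, and the other 5 members passed in none. Retn passed only through the treated rats, where it is high, and had to differ for that reason. Adipoq, Plin1, Cidec, Lep and Ucp1 were therefore also fitted without the filter.

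In MI vs. Sham, the question was what ligation did after 28 days. Of the 4 members tested, Fabp4 was called lower and Cfd higher. Over all 13485 genes tested, 10.3% were called lower and 12.1% higher. Fabp4 changed by -3.57 ± 0.49 (SE) on the log2 scale, with a limma p adjusted by Benjamini-Hochberg of 0.00258, and it was lower in 3 of 3 MI rats. Cfd changed by 2.07 ± 0.53 (SE), with an adjusted limma p of 0.0206. With every library rescaled to its recovered reads, which moved the median of all tested genes by 0.93, the change was -2.45 for Fabp4 and 3.13 for Cfd, and both were still called. Of 13535 genes tested under that rescaling, 6099 were called higher and 290 lower. In the values as deposited, Cfd was at 1.43 without MI rat 2. Cidea had a log2 fold change of 0.28 ± 0.48 (SE) and Plin4 one of 0.06 ± 0.36 (SE), both smaller than their errors. Without overlap between the rats, Adipoq, Plin1, Cidec and Cfd were higher in group MI and Fabp4 was lower. That holds for 21.1% of the genes above 0 in any of these 6 rats in the higher direction and 18.5% in the lower. The two-sided exact permutation p was 0.1 for each of these 5 genes, the smallest that 3 rats against 3 allow. In the fit without the filter, Adipoq had a log2 difference of 0.41 ± 0.08 (SE) and an adjusted limma p of 0.0218, short of the fold-change threshold.

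In DAPA (1st d) vs. MI, the question was how treated and untreated ligated rats differed. Of the 4 members that reached 1 FPKM in both groups, 0 were called, and over all 13251 genes tested 0.951% were called higher and 1.11% lower. Retn was the fifth member tested. It passed both thresholds at 1.47 ± 0.27 (SE) on the log2 scale, but it entered through the treated rats alone, so that this is given as a value and not as support. Its limma adjusted p was 0.558, and 0 of the 13251 genes passed at that level, against 1125 genes with an unadjusted p under 0.05. Fabp4 had a log2 fold change of 0.99 ± 0.54 (SE), Cidea 0.86 ± 0.53, Plin4 0.23 ± 0.38 and Cfd -1.28 ± 0.56, and none of these 4 passed. These values turned on single MI rats. Without MI rat 1, Fabp4 was called at 1.45 and Cfd at -1.75, whereas without MI rat 2 Fabp4 was at 0.43, Cidea at 0.27 and Cfd at -0.64. When any 1 treated rat was left out, Retn no longer met the filter.

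Adipoq, Cidec and Retn were higher in all 3 treated rats than in all 3 MI rats, with an exact permutation p of 0.1 each, the smallest possible. Such a separation in the higher direction was found for 5.15% of the 22604 genes above 0 in any of these rats. In the fit without the filter, Adipoq changed by 1.54 ± 0.49 (SE), and 2 of the 9 members in that fit, Adipoq and Retn, were called higher. This call was made for 0.465% of the 22604 genes. Cidec had a log2 difference of 0.55 ± 0.21 (SE) and Plin1 one of 0.70 ± 0.33 (SE), below the fold-change threshold, and the exact permutation p of Plin1 was 0.2. The adjusted limma p was 0.675 for each of these 4 genes. With a pseudocount of 0.1 in place of 1, the log2 differences of Adipoq, Plin1, Cidec and Retn became 2.69, 1.80, 1.69 and 3.22.

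In DAPA (1st d) vs. Sham, Cidea was called higher and Fabp4 lower among the 4 members that reached 1 FPKM in both groups. Retn also passed both thresholds, again after entering through the treated rats alone. Over all 13359 genes tested, 9.54% were called higher and 8.16% lower. Fabp4 changed by -2.58 ± 0.32 (SE; limma adjusted p = 0.00280), Cidea by 1.15 ± 0.27 (SE; limma adjusted p = 0.0187) and Retn by 1.62 ± 0.29 (SE; limma adjusted p = 0.00814). Without treated rat 2 Cidea was at 0.86 and no longer called, and without any 1 treated rat Retn did not meet the filter. Cfd had a log2 fold change of 0.78 ± 0.27 (SE; limma adjusted p = 0.0613). After the same rescaling, with a shift of 0.74 in the median of all tested genes, Fabp4 was at -1.69, Cidea at 1.99 and Cfd at 1.63, all 3 called. Of 13050 genes tested under that rescaling, 4433 were called higher and 233 lower. Without the filter Adipoq changed by 1.94 ± 0.48 (SE; limma adjusted p = 0.0493), a call in the higher direction that 5.97% of the genes in that fit shared. Adipoq, Plin1, Cidec, Cidea, Retn and Cfd were higher in every treated rat than in every Sham rat, and Fabp4 was lower. Over all genes with a value, 17.2% separated in the higher direction and 16.1% in the lower. This comparison shares its rats with the other 2 and is no independent evidence beside them.

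**Figure D3:**
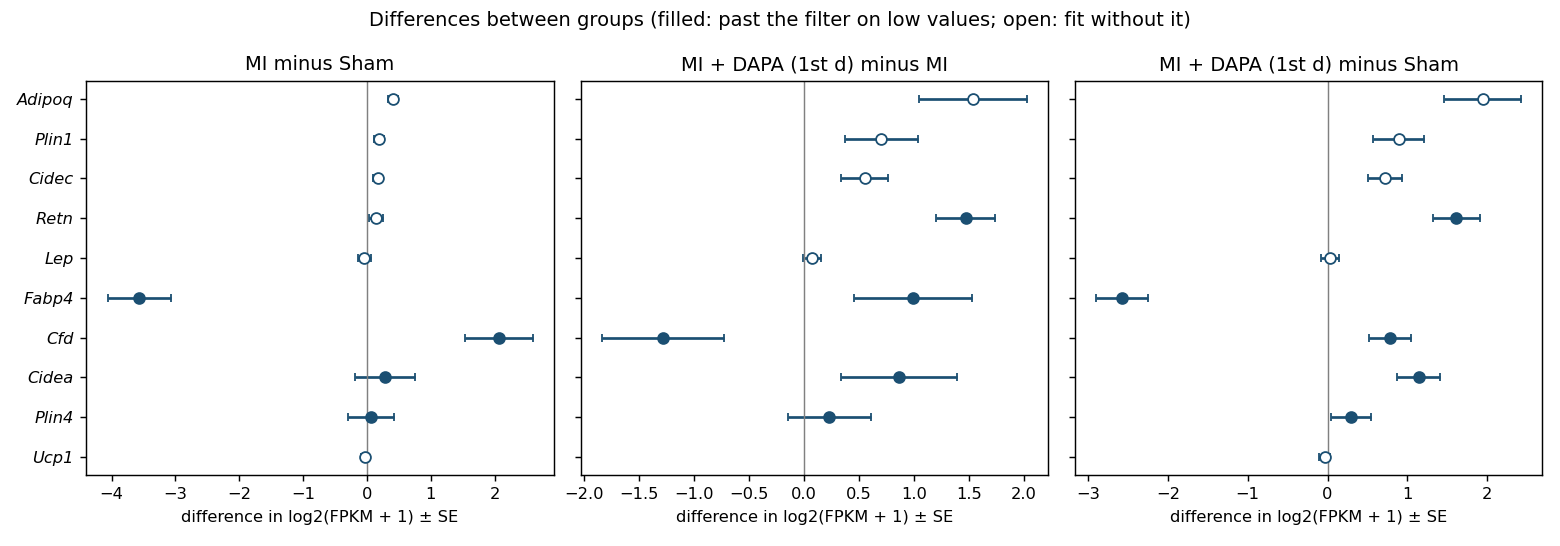
Difference in log2(FPKM + 1) with its SE from limma for each member in MI minus Sham, DAPA (1st d) minus MI and DAPA (1st d) minus Sham, with 3 rats per group. Filled points are genes past the filter on low values, open points come from the fit without it, and Ucp1 has no point in the middle panel because it is at 0 in those 6 rats. Fabp4 lies at -3.57 and -2.58 against group Sham, and Adipoq, Plin1, Cidec and Retn lie to the right of 0 in both panels that include the treated rats.

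Over all 10 members the median difference of group means in log2(FPKM + 1) was 0.16 in MI vs. Sham, with 7 members above 0 and 3 below. It was 0.63 in DAPA (1st d) vs. MI, with 8 above 0 and 1 below, and 0.75 in DAPA (1st d) vs. Sham, with 8 above and 2 below. Over all genes with a value the medians were 0.02, -0.02 and 0.01. With no filter and a pseudocount of 0.1, chosen after the values were seen, 5 members were called in MI vs. Sham beside 22.5% of all genes in that fit. The members called were 3 in DAPA (1st d) vs. MI, beside 3.74% of all genes, and 6 in DAPA (1st d) vs. Sham, beside 17.4%.

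Markers of other heart cells moved beside several members, and their part in these differences was not tested. Counts of called genes from here on stand beside the same shares of all tested genes. These were 12.1% higher and 10.3% lower in MI vs. Sham, and 9.54% and 8.16% in DAPA (1st d) vs. Sham. In DAPA (1st d) vs. MI they were 0.951% and 1.11%, and no gene had an adjusted limma p below 0.558. Beside Fabp4, 7 of 9 tested endothelial markers were called lower in MI vs. Sham, with a median of -1.59. In DAPA (1st d) vs. MI 0 of 9 were called, and all 9 had a log2 fold change above 0, with a median of 0.37. Egfl7, a factor secreted by endothelium, changed by -2.55 ± 0.20 (SE; limma adjusted p = 0.000953) in MI vs. Sham. The summed FPKM of 11 endothelial markers was 1353 to 1446 in group Sham, 335 to 431 in group MI and 491 to 513 in the treated group, with Cldn5 at 0 in all 9 rats. Fabp4 and this sum were both lowest in MI rat 2.

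Beside Cfd, 12 of 12 macrophage markers were called higher in MI vs. Sham, with a median of 2.55, and 0 of 12 were called in DAPA (1st d) vs. MI, where the median was -0.71. Their summed FPKM was 169.7 to 531 in group Sham, 2014 to 3647 in group MI and 1106 to 2062 in the treated group. MI rat 2 had the highest Cfd and the highest macrophage sum. Beside Cidea, 5 of 12 cardiomyocyte markers were called higher and 1 lower in DAPA (1st d) vs. Sham. In DAPA (1st d) vs. MI all 12 had a log2 fold change above 0, with a median of 1.31. There 3 of the 12, Tnni3, Csrp3 and Myl2, were called higher, beside 0.951% of all genes tested. Their sum was 8955 to 12890 FPKM in group Sham, 2869 to 14518 in group MI and 11572 to 24231 in the treated group. MI rat 2 had the lowest Cidea, the lowest Plin4 and the lowest cardiomyocyte sum.

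**Figure D4:**
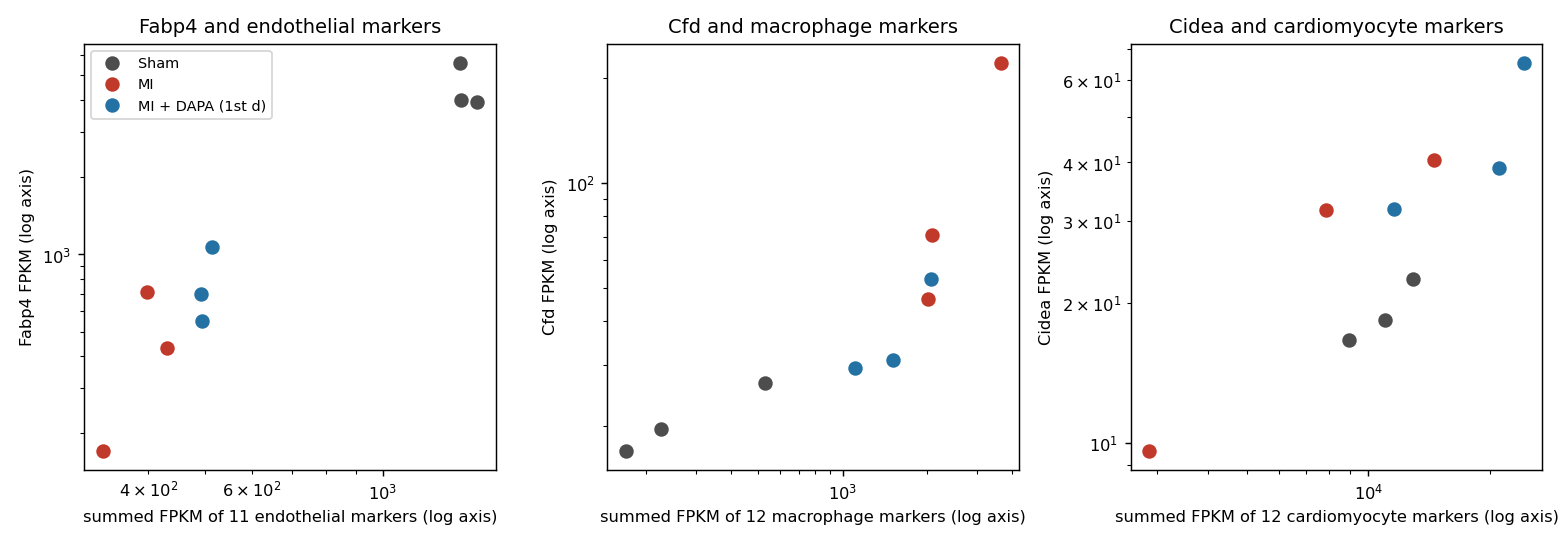
Fabp4 against the summed FPKM of 11 endothelial markers, Cfd against 12 macrophage markers and Cidea against 12 cardiomyocyte markers, on log axes with 1 point per rat. The 3 Sham rats stand at the upper right for Fabp4, MI rat 2 stands at the upper right for Cfd and at the lower left for Cidea.

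Among markers known to separate brown fat from muscle, Elovl3 and Zic1 were listed at 0 in all 9 rats, and Ucp1 in 8. Cldn5, a gene of endothelium, was listed at 0 throughout as well, beside endothelial markers at high levels, so a 0 in every rat is given only as it is listed. Of the 10 other brown fat genes matched, 5 were tested. Cox8b, a cytochrome c oxidase subunit of heart and brown fat, was the most abundant, at a mean of 2296 FPKM in group Sham, 272 in group MI, with 731 in the treated group. Cox8b and Kcnk3 were called lower in MI vs. Sham, Cox8b was called higher in DAPA (1st d) vs. MI, and Cox8b was called lower in DAPA (1st d) vs. Sham. The adjusted limma p of Cox8b in DAPA (1st d) vs. MI was 0.558.

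Other genes of fat tissue did not follow 1 direction either. Some were high in group Sham, where Adipoq, Plin1 and Cidec were not detected, such as Lpl at a mean of 428 FPKM, Lipe at 78.0 and Slc2a4 at 45.7. Thrsp was at 0 there. Which cells made these genes was not tested. Among regulators of adipogenesis, Pparg, the master regulator of the adipocyte programme, was at 3.23 to 3.83 FPKM in group MI and 8.28 to 11.6 in group Sham, a change of -1.29 ± 0.17 (SE; limma adjusted p = 0.00243). Cebpa, which acts with it, rose by 2.68 ± 0.43 (SE; limma adjusted p = 0.00409). Of the 8 regulators tested, Cebpa and Cebpb were called higher and Pparg lower in MI vs. Sham, and 0 of 8 were called in DAPA (1st d) vs. MI.

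Among genes of lipolysis and lipid uptake, 2 of 10 were called higher and 4 lower in MI vs. Sham, beside 12.1% and 10.3% of all genes tested. Lipe, hormone-sensitive lipase, fell by 2.35 ± 0.25 (SE; limma adjusted p = 0.00130), and Lpl, lipoprotein lipase, fell by 1.93 ± 0.39 (SE; limma adjusted p = 0.00864). Plin2, a perilipin found in most cells, rose by 1.26 ± 0.17 (SE; limma adjusted p = 0.00237). In DAPA (1st d) vs. MI, Plin5, Aqp7 and Pnpla2 were called higher among 11 tested, beside 0.951% of all genes tested. No gene had an adjusted limma p below 0.558 in that comparison. In DAPA (1st d) vs. Sham 3 of 10 were called higher and 1 lower, beside 9.54% and 8.16% of all genes tested. The adipocyte-type adrenergic receptor Adrb3 was listed at 0 in all 9 rats.

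Among lipid synthesis genes, Dgat1 was called lower in MI vs. Sham out of 10 tested. Thrsp, a lipogenic factor of fat and liver, and Scd, a fatty acid desaturase, were called higher in DAPA (1st d) vs. MI out of 12. Over all 13251 genes tested there, 0.951% were called higher. In group MI only rat 1 reached 1 FPKM of Thrsp and only rat 2 reached 1 FPKM of Scd. Both genes thus met the filter only with the treated rats, and these calls are given as values and not as support. Thrsp was at 0 in the Sham rats, at 1.05, 0.276 and 0.127 FPKM in group MI and at 2.85, 6.52 and 8.39 FPKM in the treated group. Its change in DAPA (1st d) vs. MI was 2.18 ± 0.39 (SE; limma adjusted p = 0.558), and treated rat 3 was again the highest. Scd was at 0.601, 2.53 and 0.828 FPKM in group MI and 1.60, 5.12 and 9.34 FPKM in the treated group, which overlapped. Me1 and Gpd1 were called higher in DAPA (1st d) vs. Sham. Scd and Thrsp passed the thresholds there too, but both entered through the treated rats alone and had to differ. Of 11 other white fat genes tested, 3 were called higher and 4 lower in MI vs. Sham, where 2 of the 3, Serpina3n and Nnat, had entered through the MI rats alone. Slc2a4, the insulin-regulated glucose transporter, was the 1 called in DAPA (1st d) vs. MI, higher, among 12, with an adjusted limma p of 0.558.

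The genes most like Adipoq, Plin1, Cidec and Retn were sought over 9 rats by Pearson's r with their mean log2(FPKM + 1), among 14157 genes, a measure chosen after the values were seen. Thrsp came first at 0.965, then Scd at 0.929 and Car3, a carbonic anhydrase abundant in fat and slow muscle, at 0.897. Car3 was at 0.0602, 0 and 0 FPKM in group Sham, 3.98, 5.96 and 0.987 in group MI, and 3.06, 12.5 and 28.0 in the treated group. The next 7 genes had r of 0.835 to 0.889 and included Chst7, Atad1 and Cdh13, which were present in every rat. With the 5 members that reach 1 FPKM in 3 rats (Plin4, Cidea, Fabp4, Retn and Cfd) and the group means subtracted, the creatine transporter gene Slc6a8 came first at 0.996. Mrps28, Plcl1, Jam3, Cab39l, Kif13a and Cryzl1 were among the other 9, at 0.964 to 0.977. These 9 points share libraries and depth, and the values are a description only.

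Markers of tissues that a ventricular sample may also catch were measured in the same rats. Of 4 atrial genes tested, Nppa was called higher in MI vs. Sham, Myl4 in DAPA (1st d) vs. MI and Nppa, Myl4 and Myl7 in DAPA (1st d) vs. Sham. The adjusted limma p of Myl4 in DAPA (1st d) vs. MI was 0.558. The sum of all 6 atrial genes on the list was 74.9 to 206 FPKM in group Sham, 636 to 7235 in group MI and 4216 to 8793 in the treated group, and it was lowest of the treated rats in rat 3, where Adipoq was highest. Nppa, the natriuretic peptide gene that stressed ventricle also makes, was 78.8 to 99.1% of that sum in every rat. The other 5 genes summed to at most 26.0 FPKM in group Sham, at most 66.2 in group MI and 61.7 to 133.8 in the treated group. Sln, a further atrial gene, had a mean of 2.30 FPKM in group Sham and 0.469 in group MI. The sum of 8 mesothelial markers was 33.2 to 41.3 FPKM in group Sham, 10.5 to 103 in group MI and 11.8 to 17.1 in the treated group. Of 3 mesothelial genes tested in MI vs. Sham, Msln and Krt8 were called higher and Wt1 lower, while Msln passed the thresholds as lower in DAPA (1st d) vs. MI after entering through the MI rats alone. Of 7 adipocyte progenitor genes tested, 4 (Pi16, Pdgfra, Cd34 and Bmper) were called higher and 1 (Dpp4) lower in MI vs. Sham. Over all genes tested there, 12.1% were called higher and 10.3% lower. In DAPA (1st d) vs. MI 0 were called, and all 7 had a log2 fold change below 0, with a median of -0.48. Whether these genes came from progenitors of fat or from other cells was not tested. The sum of all 9 progenitor genes on the list was 79.9 to 148.9 FPKM in group Sham, 459 to 674 in group MI and 455 to 762 in the treated group. Skeletal muscle genes summed to 14.7 to 27.1 FPKM over all rats, and Schwann cell genes to 61.7 to 260.2 FPKM. Ighm and Jchain were called higher in MI vs. Sham and lower in DAPA (1st d) vs. MI, where the adjusted limma p of each was 0.558.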

How the data were processed

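RNA was extracted by the authors from the heart of 3 rats per group, which the labels call biological replicates. Each sample title joins 2 numbered items whose meaning is not given. That 1 sample is 1 rat is therefore an assumption. The submitters' processing notes name HISAT2 2.0.5, StringTie 1.3.3b, featureCounts 1.5.0-p3 and DESeq2, the last of which the study's methods give for differential expression. The genome build and the use of strand in counting are not given in the sources used here. The deposited FPKM values, 1 column per rat, are per gene length and per library total by definition, but how the authors set that total is not given in the sources used here. The number of columns not used is 0. The value of 1 read did not follow the total of recovered reads, so a scaling to all recovered reads was tried as well.

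Whole reads, within 0.01 of a whole number, were recovered for all 18896 genes seen in 4 or more libraries. FPKM are not counts, so limma 3.58.1 in R 4.3.3 was applied to log2(FPKM + 1), fitting only the 6 rats compared, without covariates and with a mean-dependent prior variance. Two-sided exact permutation tests served for single genes. The recovery of reads and the limma fit were tested on simulated data. The members and lists were chosen with earlier results of these data known. Of 168 names in the member list and 14 others, 155 matched a row and the rest are not analysed here. Named genes were all members, up to 4 genes of the highest mean FPKM per list and the 10 genes most like the members. Thrsp, Scd, Car3, Pparg, Plin2 and others outside this rule were chosen after their values were seen, as was the group of 4 genes. Alternatives were another pseudocount, filters, scalings, all 9 rats in 1 fit, a replicate block and each rat left out. Python 3.11.15 with numpy, pandas and matplotlib served for the rest.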

Additional observations from a re-analysis of the deposited data

How the results depend on the processing

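The directions of Fabp4 and Cfd in MI vs. Sham, of Retn, Fabp4, Cidea and Cfd in DAPA (1st d) vs. MI and of all 5 tested members in DAPA (1st d) vs. Sham held under each alternative that tested them. The cause of the changes below was not tested, except where a filter or pseudocount removes or adds genes. Retn counts among the called members here although it entered through the treated rats alone. In MI vs. Sham, 2 members were called, and 5 without a filter and with a pseudocount of 0.1, an alternative chosen after seeing the data. The median over 10 members was 0.16 and became 0.56 with a pseudocount of 0.1. In DAPA (1st d) vs. MI, 1 member was called. There were 2 without a filter, with all 9 rats in 1 fit, with mitochondrial genes left out and when scaled to all recovered reads, 3 without a filter and with a pseudocount of 0.1, and 0 with at least 1 FPKM in all 6 rats or with adjusted p-values. Leaving out 1 rat gave 0 to 3 calls, 3 without MI rat 1 and 0 without any treated rat. In DAPA (1st d) vs. Sham, 3 members were called, 6 without a filter and with a pseudocount of 0.1, and 1 to 3 with 1 rat left out, 1 without treated rat 2. With the replicate block the counts were 2, 1 and 3, and it changed no call. Same-numbered rats are different animals, their deviations from the group means correlated over genes at -0.304 to 0.195, and not every rat correlated best with its own number. Leaving out 1 rat gave Plin4 -0.17 to 0.48 in MI vs. Sham, -0.04 without Sham rat 1, -0.17 without MI rat 1 and -0.12 without MI rat 3. Cidea ranged from -0.10 without MI rat 3 to 0.88 in MI vs. Sham, and Plin4 from -0.18 without MI rat 2 to 0.46 in DAPA (1st d) vs. MI.

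Scaling to all recovered reads shifted the median of all tested genes by 0.93 in MI vs. Sham, -0.19 in DAPA (1st d) vs. MI and 0.74 in DAPA (1st d) vs. Sham. Those reads include the mitochondrial genome, whose share differed between the groups. The share of calls that were higher was then 95.5, 17.5 and 95.0%, against 54.0, 46.2 and 53.9% as deposited, and 34.9% in DAPA (1st d) vs. MI with mitochondrial genes left out. When scaled to all recovered reads, Cidea was called at 1.33 in MI vs. Sham, where 6099 of 13535 genes were called higher. Cfd was then called at 1.63 in DAPA (1st d) vs. Sham, where 4433 of 13050 genes were called higher. Cfd was called in DAPA (1st d) vs. MI at -1.28 with all 9 rats in 1 fit, -1.35 with mitochondrial genes left out and -1.51 when scaled to all recovered reads. Of the 10 genes most like the members, 1 (Slc6a8) was also among the 10 with group means kept, and 0 were among the 10 most like Adipoq, Plin1, Cidec and Retn. Reads on Adipoq, Plin1 and Cidec numbered 3 to 220 per ligated rat, on Retn 2 to 78 and on Lep 0 to 11, which limits the precision of these values.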

Other observations

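Hcar1, the lactate receptor that restrains lipolysis in adipocytes, did not follow Adipoq. It was at 0, 0.0687 and 0 FPKM in group Sham, at 0.803, 1.16 and 0.994 in group MI and at 0.556, 1.01 and 1.33 in group DAPA (1st d), so that both ligated groups lay above group Sham and overlapped each other. Gpd1, which makes the glycerol backbone of triglyceride, was highest in treated rat 1 at 26.9 FPKM, the treated rat with the least Adipoq, beside 12.5 and 12.6 in the other treated rats. Pck1, which serves glyceroneogenesis in fat, was at 0, 0.238 and 0.780 FPKM in the treated rats and at no more than 0.0987 in the other 6.

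Treated rat 3 stood apart in 3 of the 10 genes most like Adipoq, Plin1, Cidec and Retn. Nupr1l1 was at 58.7 FPKM in that rat and between 0 and 2.51 in the other 8. AABR07013651.1 was at 52.5 FPKM there and between 3.60 and 14.0 in the others. LOC100910882 was at 6.79 FPKM there and between 0.0967 and 1.36 in the others. These genes were singled out after their values were seen. The 10 were picked by likeness to 4 genes that are highest in treated rat 3, which favours genes high in that rat. Their log2 fold changes in DAPA (1st d) vs. MI were 1.41 ± 1.18 (SE; limma adjusted p = 0.668) for Nupr1l1, 1.41 ± 0.67 (SE; limma adjusted p = 0.558) for AABR07013651.1 and 0.78 ± 0.69 (SE; limma adjusted p = 0.686) for LOC100910882. Against group Sham the treated group's were 2.76 ± 1.11 (SE; limma adjusted p = 0.101) for Nupr1l1 and 1.86 ± 0.58 (SE; limma adjusted p = 0.0472) for AABR07013651.1. Nupr1l1 entered that comparison through the treated rats alone and had to differ.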
